A study of Mus musculus with 8 samples.

Results

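The transcripts of 9 genes were examined in tumor-associated macrophages (TAMs): 8 genes of the interferon regulatory factor (IRF) family, Irf1, Irf2, Irf3, Irf4, Irf5, Irf7, Irf8 and Irf9, and Irf2bp2, whose product binds IRF2. They were chosen by name, out of 53247 genes in the expression table, and all 9 passed the filter on low values that left 13850 tested genes. TAMs were taken from Lewis lung carcinoma (LLC) tumors grown under the skin of C57/BL6 mice that were either WT or null for miR-21 (miR-21-/-), and were sorted by flow cytometry as cells positive for CD45, CD11b, MHCII and F4/80. The mice were 8 weeks old at implantation and 10 weeks old when the tumors were taken, 14 days later, with 4 samples per genotype. LLC is a mouse lung tumor line, and the implanted cells were the same in both groups. The miR-21 null allele is not restricted to macrophages, so the other host cells of these tumors lacked miR-21 as well. The labels call the samples biological replicates without saying whether each came from 1 mouse, and the title of miR-21-/- sample 1 joins a pair of sample numbers; it was counted as 1 replicate. The p-values therefore measure the spread between these samples.

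IRFs are transcription factors that share an N-terminal DNA-binding domain and recognize GAAA-containing elements in the promoters of interferon genes and interferon-stimulated genes. Some, such as IRF3 and IRF7, lie dormant in the cytoplasm until a kinase downstream of a pathogen sensor phosphorylates them, whereas others, such as IRF1 and IRF8, are themselves induced as transcripts by IFN-γ. In macrophages, IRF1, IRF5 and IRF8 are known for driving proinflammatory genes, and IRF4 is known for the response to IL-4.

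The deletion removes the microRNA miR-21a-5p, whose seed (bases 2 to 8, in capitals) pairs with its targets. The mature sequence, from RefSeq (GRCm38.p6, chr11:86584120-86584141, minus strand), is
miR-21a-5p: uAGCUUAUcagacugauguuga
Matches to the seed were counted in the longest 3′ UTR that GENCODE gives for each gene, because it shows whether the transcripts carry a canonical site for the deleted microRNA. None of the 9 held a site of 7 or 8 bases. Irf1, Irf4 and Irf2bp2 each held 1 match to the 6 bases TAAGCT, which is the weakest class of seed match. These matches, in capitals with the bases around them, lie at chr11:53777619-53777646 (plus strand) for Irf1, at chr13:30765568-30765595 (plus strand) for Irf4 and at chr8:126590323-126590350 (minus strand) for Irf2bp2 in GRCm38.
Irf1: acagacagctgTAAGCTgccatgtggtg
Irf4: ttccttaatgtTAAGCTgttttaacagt
Irf2bp2: gtgaccggttgTAAGCTttcagtgctgc
A match of 6 bases or more was present in 26.6% of 11449 tested genes with an annotated 3′ UTR, and 1 of 7 bases or more in 12.4%. The transcript levels of the 3 genes with a 6-base match differed in direction, with Irf1 higher and Irf4 and Irf2bp2 lower in the mean of the miR-21-/- samples. Mir21a itself was listed at 0 in all 8 samples, and thus gave no check of the genotypes.

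Levels were deposited as CPM (counts per 1e+06 reads) and compared on the log2(CPM + 1) scale with limma, a linear model fitted across all tested genes. A gene was taken as changed where it changed by more than 1.5-fold and its p, adjusted by the method of Benjamini and Hochberg, did not exceed 0.005; the study used the same limits. By this rule 1 of the 9 genes, Irf1, was changed, and it rose in miR-21-/- TAMs. Over all genes tested, 7.12% passed the rule, 2.89% higher and 4.23% lower. The median log2 fold change was 0.041 over the 9 genes and -0.10 over all tested genes. Without the limit on fold change a second gene, Irf8, passed, against 14.3% of all tested genes in either direction and 4.64% higher.

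**Figure D1:**
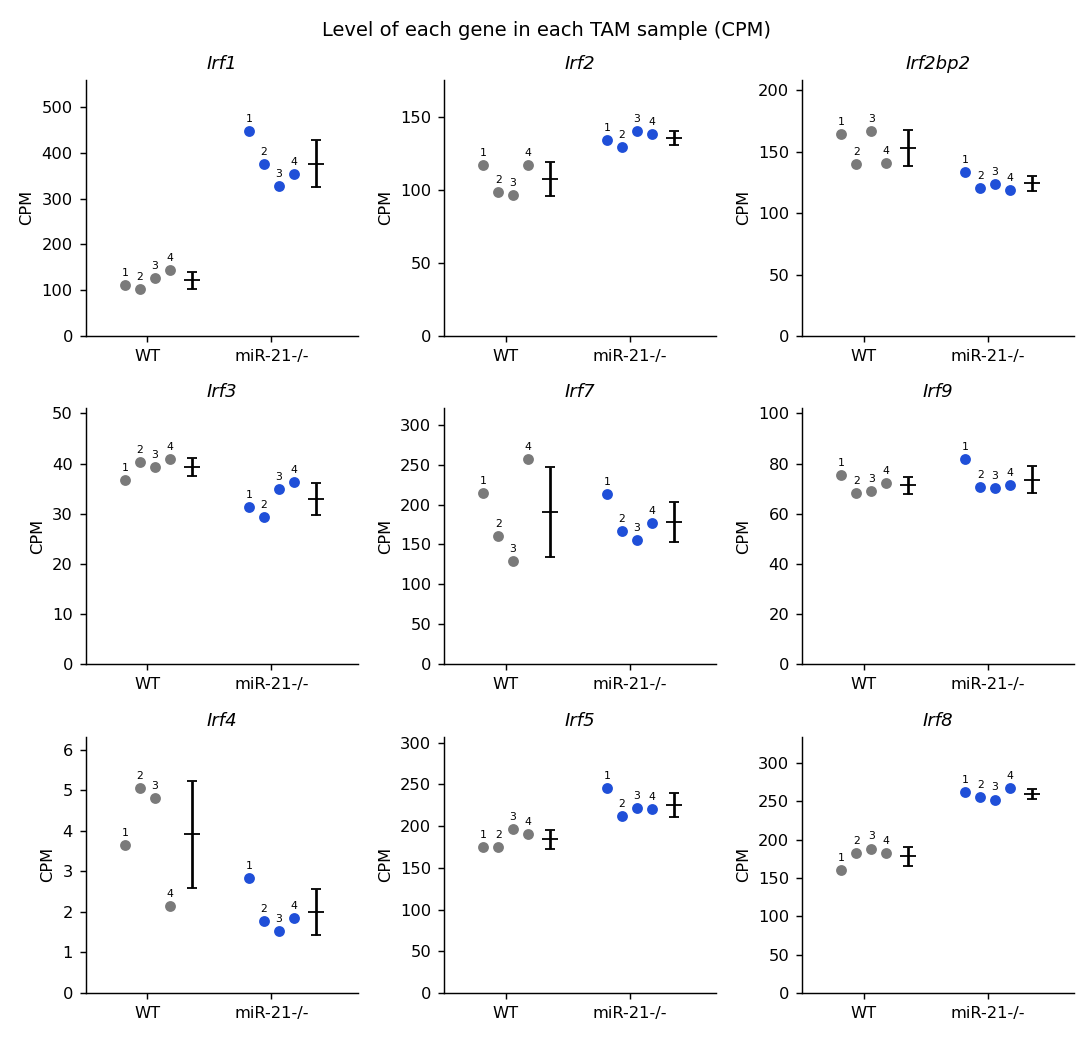
Each panel plots the level of 1 gene in CPM for every sample, WT in gray and miR-21-/- in blue, with the replicate number above each point and the mean ± SD as a black bar (n = 4 each). Irf1 is separated by the widest gap, from 144 to 327 CPM, whereas the Irf7 and Irf9 samples of both genotypes are mixed.

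The samples of the genotypes did not overlap for 6 of the 9 genes, 4 of them higher (Irf1, Irf2, Irf5 and Irf8) and 2 lower (Irf3 and Irf2bp2) in miR-21-/- TAMs. Among all tested genes 35.1% did not overlap. After the CPM were rescaled by the median of ratios, which moved the median of all tested genes by 0.10, the 4 higher genes still did not overlap but Irf3 and Irf2bp2 did, and after quantile normalization Irf3 overlapped. Sorted samples can hold other cells, and fewer cells that express a gene cannot be told apart from less RNA per cell. All 11 macrophage markers examined, among them Adgre1, which encodes F4/80, and Itgam, which encodes CD11b, passed the filter, and their summed level was 13254 to 14752 CPM in WT TAMs against 14080 to 16578 CPM in miR-21-/- TAMs. Single markers moved apart within this sum, of which Lyz2 was the largest member. Fcgr1, an Fc receptor, rose from 273 ± 35.4 to 458 ± 45.8 CPM (adjusted p = 0.000561), whereas Adgre1, at 564 ± 19.4 CPM in WT and 433 ± 27.5 in miR-21-/- TAMs (log2 fold change -0.38, adjusted p = 0.00140), and Csf1r, at 1311 ± 160 and 939 ± 79.1 CPM (-0.48, adjusted p = 0.00538), did not pass both limits. Markers of other cells were examined as well, and some of them differed between the genotypes. The 6 neutrophil markers summed to 769 to 1168 CPM in WT TAMs, above the 574 to 747 CPM of miR-21-/- TAMs, and none of the 6 passed the threshold. Most of these sums came from S100a9, Csf3r and S100a8, which like Cxcr2 and Retnlg were lower in the mean of miR-21-/- TAMs. Ly6g went the other way, at 1.91 ± 0.711 and 2.59 ± 0.756 CPM (log2 fold change 0.31, limma adjusted p = 0.270). Of 7 markers of tumor cells, fibroblasts or endothelium (sums of 224 to 401 and 215 to 298 CPM), Col1a1 and Col3a1 fell. Col1a1 went from 22.7 ± 8.80 to 4.53 ± 4.38 CPM and Col3a1 from 36.4 ± 15.5 to 6.99 ± 7.54 CPM. Most of the sums came from Pecam1, at 192 ± 63.5 and 218 ± 41.6 CPM (limma adjusted p = 0.446). Krt8, Krt18, Dcn and Cdh5 were lower in the mean of miR-21-/- TAMs and did not pass. Of 8 T cell markers (sums of 19.2 to 40.4 and 8.56 to 37.3 CPM) Cd4 fell. It went from 16.6 ± 10.0 to 2.19 ± 1.15 CPM, and was the largest member of the sum in every WT sample. Cd8a had 1.92 ± 0.413 and 6.71 ± 3.66 CPM (limma adjusted p = 0.00804). Cd3e had 2.20 ± 0.283 and 3.22 ± 2.02 CPM, and Cd3g 2.08 ± 0.288 and 3.14 ± 2.13 CPM. Cd3d had 1.08 ± 0.394 and 1.14 ± 0.714 CPM. Cd8b1 was also higher in the mean of miR-21-/- TAMs, and Cd5 and Cd6 were lower. The 6 NK cell markers summed to 4.26 to 12.6 and 7.95 to 23.3 CPM, and none passed the threshold. Prf1, at 3.85 ± 2.28 and 9.74 ± 4.44 CPM, and Nkg7 made up most of these sums. Nkg7, Gzma and Eomes were also higher in the mean of miR-21-/- TAMs, Gzma only slightly. Ncr1 went the other way, at 0.340 ± 0.159 and 0.123 ± 0.101 CPM, as did Klrb1c, at 0.491 ± 0.0917 and 0.391 ± 0.193 CPM. Ncr1, Klrb1c and Eomes were under 1 CPM in every sample and did not pass the filter. The part of these cells in the levels of the 9 genes was not tested. The depth was 20.2 to 33.4 (in 1e+06 reads) per library, judged by what 1 read is worth among low values.

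IRF1 is an activator that is induced within hours by IFN-γ and binds the promoters of antigen-presentation and antimicrobial genes. Irf1 (chr11:53770014-53778374, GRCm38, plus strand) was at 111, 103, 126 and 144 CPM in WT samples 1 to 4 and at 447, 376, 327 and 353 CPM in miR-21-/- samples 1 to 4. The lowest miR-21-/- sample was 183 CPM above the highest WT sample. The mean rose from 121 ± 17.9 to 376 ± 51.7 CPM (SD, n = 4 each), which is 3.10-fold. The log2 fold change was 1.63 (standard error 0.12, 95% interval 1.37 to 1.89, limma adjusted p = 1.61e-05), which placed it at rank 64 by increase among all tested genes. Between 2555 and 12553 reads stood behind each value, so counting error was small against the spread between samples. The exons of Irf1 share 135 bases, 3.40% of their length, with Gm17334 on the opposite strand, and whether reads were counted by strand is not given in the sources used here.

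IRF2 binds the same DNA elements as IRF1 and is known as its antagonist, although it activates some genes. Irf2 (chr8:46739732-46847458, plus strand) was at 117, 98.2, 96.1 and 117 CPM in the WT samples and at 134, 129, 140 and 138 CPM in the miR-21-/- samples. The groups were 12.1 CPM apart at their nearest samples. The mean was 107 ± 11.5 CPM in WT TAMs against 135 ± 4.82 CPM in miR-21-/- TAMs, with a log2 fold change of 0.34 (95% interval 0.17 to 0.51, adjusted p = 0.00652), which missed both limits.

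IRF2BP2 lacks the IRF DNA-binding domain and acts as a corepressor that was found through its binding to IRF2. Irf2bp2 (chr8:126588296-126593986, minus strand) was at 164, 140, 167 and 141 CPM in the WT samples and at 133, 121, 124 and 119 CPM in the miR-21-/- samples. The WT samples fell into a higher and a lower pair, and the lower pair stayed 6.70 CPM above the highest miR-21-/- sample. This gave a log2 fold change of -0.30 (95% interval -0.46 to -0.13, adjusted p = 0.0111), which was -0.18 after rescaling by the median of ratios (adjusted p = 0.0944). Its exons share 1039 bases with Gm26759 on the opposite strand. Its relatives Irf2bp1 and Irf2bpl were examined beside it. Irf2bp1 had 15.6 ± 0.776 CPM in WT TAMs against 11.9 ± 0.709 in miR-21-/- TAMs, and its log2 fold change of -0.36 (adjusted p = 0.00341) was under the fold limit. Irf2bpl had 54.6 ± 2.37 and 60.3 ± 3.91 CPM, with a log2 fold change of 0.14.

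IRF8 works with PU.1 to set up the monocyte and dendritic cell lineages and, like IRF1, responds to IFN-γ. Irf8 (chr8:120736358-120756694, plus strand) was at 160, 182, 188 and 182 CPM in the WT samples and at 262, 256, 252 and 267 CPM in the miR-21-/- samples. It had the smallest spread among the 9 genes in miR-21-/- TAMs, where the highest sample was 1.06 times the lowest, and the groups were 63.9 CPM apart. The mean went from 178 ± 12.4 to 259 ± 6.72 CPM, 1.46-fold, with a log2 fold change of 0.54 (standard error 0.059, 95% interval 0.41 to 0.67, adjusted p = 0.000178). This is under the limit of 1.5-fold, or 0.58 on the log2 scale, which lies inside the interval. After rescaling by the median of ratios the log2 fold change was 0.65 and Irf8 passed both limits.

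Dendritic cells also express Irf8, and their markers were therefore set beside it. The 7 markers of conventional type 1 dendritic cells summed to 364 to 531 CPM in WT TAMs against 307 to 565 CPM in miR-21-/- TAMs, and none of the 7 passed the threshold. Most of that sum came from a pair of its genes. Wdfy4 was at 272 ± 13.5 CPM in WT TAMs against 194 ± 20.3 CPM in miR-21-/- TAMs (log2 fold change -0.50, adjusted p = 0.00104, under the fold limit). Cadm1 was at 146 ± 53.4 CPM against 181 ± 76.7 CPM (adjusted p = 0.532). Xcr1, a chemokine receptor that defines these cells, was at 3.54 ± 2.40 CPM against 9.61 ± 7.95 CPM (adjusted p = 0.117). Tlr3, a receptor for double-stranded RNA, was at 17.6 ± 1.25 CPM against 23.3 ± 0.898 CPM, without overlap (log2 fold change 0.39, adjusted p = 0.00185, under the fold limit). Batf3 and Itgae, had log2 fold changes of -0.19 and -0.28 (adjusted p = 0.568 and 0.101). Clec9a, which is among them, had 2.54 ± 0.195 CPM in WT TAMs against 8.18 ± 4.29 CPM in miR-21-/- TAMs (adjusted p = 0.00532), and in miR-21-/- TAMs it was lowest in sample 1 and highest in sample 4. Of 7 markers of plasmacytoid dendritic cells, 5 were under 1 CPM in every sample, among them Siglech at 0.239 CPM or less, and only Tcf4 passed the filter. The summed level of these 7 was 87.0 to 98.1 CPM in WT TAMs against 57.0 to 68.1 CPM in miR-21-/- TAMs, nearly all of it Tcf4, which fell. Pacsin1, which was not tested, went the other way without overlap. It had 0.239 ± 0.0849 CPM in WT TAMs against 0.962 ± 0.256 CPM in miR-21-/- TAMs.

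IRF4 is the family member that IL-4 induces in macrophages, and it is also abundant in B cells, plasma cells and a subset of dendritic cells. Irf4 (chr13:30749226-30766976, plus strand) was at 3.64, 5.06, 4.80 and 2.15 CPM in the WT samples and at 2.84, 1.77, 1.54 and 1.85 CPM in the miR-21-/- samples. WT sample 4 lay below miR-21-/- sample 1, so the groups overlapped. The mean was 3.91 ± 1.33 CPM in WT TAMs against 2.00 ± 0.574 CPM in miR-21-/- TAMs, on 40.0 to 146 reads per sample. The log2 fold change was -0.69 (standard error 0.21, 95% interval -1.15 to -0.22, adjusted p = 0.0286), the most negative of the 9 genes at a pseudocount of 1 but short of the limit on p. At this low level the size rested on the pseudocount: a pseudocount of 0.1 gave -0.90, whereas a pseudocount of 10 gave -0.21, where Irf2bp2 was more negative at -0.28. Without WT sample 4 it was -0.88 with an adjusted p of 0.00317 and passed both limits. With an adjusted p of 0.05 and the fold limit, 2 of the 9 genes (Irf1 and Irf4) passed, against 10.2% of all tested genes. Irf4 lost that looser call when WT sample 1, 2 or 3 or miR-21-/- sample 2, 3 or 4 was left out (adjusted p from 0.0514 to 0.0813). It also lost it after rescaling by the median of ratios (adjusted p = 0.0516), after quantile normalization (adjusted p = 0.0804) and with no filter on low values (adjusted p = 0.1005).

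Transcripts of other cell types that use IRF4 also differed between these samples. The 8 markers of B and plasma cells summed to 58.1 to 99.1 CPM in WT TAMs against 15.5 to 27.1 CPM in miR-21-/- TAMs. Of the 3 that passed the filter, Ighm and Cd79b fell, and Ighm alone went from 57.1 ± 17.5 to 12.4 ± 1.94 CPM. The other, Jchain, did not fall. It had 0.796 ± 0.209 CPM in WT TAMs against 1.40 ± 0.884 CPM in miR-21-/- TAMs (log2 fold change 0.33, limma adjusted p = 0.401). The defining B cell genes Ms4a1, Pax5 and Cd79a were at 1.31 CPM or less in every sample. The 7 markers of type 2 or migratory dendritic cells summed to 42.8 to 84.8 CPM in WT TAMs against 26.1 to 39.7 CPM in miR-21-/- TAMs, and none of the 7 passed the threshold. Most of this sum came from Clec10a (28.2 ± 12.3 and 14.4 ± 2.83 CPM) and Fscn1 (18.7 ± 3.67 and 11.3 ± 2.98 CPM). Flt3, Zbtb46 and Cd209a were also lower in the mean of miR-21-/- TAMs. Ccr7 had 3.02 ± 1.20 and 2.87 ± 0.769 CPM, and Ccl22 was higher, with 2.03 ± 1.42 and 2.57 ± 0.835 CPM. WT sample 4, the lowest WT sample for Irf4, was the lowest of the WT samples in the dendritic cell sum and the highest in the B cell sum. In contrast, miR-21-/- sample 1, the highest miR-21-/- sample for Irf4, was the highest of its group in both sums (39.7 CPM for dendritic cells and 27.1 CPM for B cells).

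IRF5 is activated downstream of Toll-like receptors through MyD88 and induces proinflammatory cytokines. Irf5 (chr6:29526625-29541871, plus strand) was at 175, 174, 197 and 191 CPM in the WT samples and at 246, 212, 222 and 221 CPM in the miR-21-/- samples. Every miR-21-/- sample was above every WT sample, by 15.1 CPM at the nearest. Its log2 fold change was 0.29 (95% interval 0.14 to 0.43, adjusted p = 0.00688), which missed both limits. The exons of Irf5 and of Tnpo3 on the opposite strand share 411 bases, 14.1% of the exon length of Irf5, and Tnpo3 had means of 89.5 CPM in WT TAMs against 84.4 CPM in miR-21-/- TAMs.

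IRF3 is constitutively made and is activated by the kinases TBK1 and IKKε. Irf3 (chr7:44997648-45002848, plus strand) was at 36.8, 40.3, 39.3 and 40.8 CPM in the WT samples and at 31.4, 29.3, 34.9 and 36.4 CPM in the miR-21-/- samples. The groups were separated by only 0.397 CPM. Its log2 fold change was -0.25 (95% interval -0.41 to -0.085, adjusted p = 0.0251). It was -0.14 after rescaling by the median of ratios (adjusted p = 0.169) and -0.16 after quantile normalization (adjusted p = 0.120).

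IRF7 is the master regulator of type I interferon genes and is itself induced by type I interferon. Irf7 (chr7:141262706-141266481, minus strand) was at 214, 161, 130 and 256 CPM in the WT samples and at 213, 166, 155 and 177 CPM in the miR-21-/- samples. All 4 miR-21-/- samples lay within the WT range, in which the highest sample was 1.97 times the lowest. On the log2 scale the difference was -0.057 (95% interval -0.47 to 0.36, adjusted p = 0.832), an interval that leaves room for changes in either direction.

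IRF9 is the DNA-binding subunit of ISGF3, the complex that carries the type I interferon signal. Irf9 (chr14:55603571-55610030, plus strand) was at 75.7, 68.2, 69.2 and 72.4 CPM in the WT samples and at 81.7, 70.7, 70.4 and 71.4 CPM in the miR-21-/- samples. The groups overlapped, and miR-21-/- sample 1 stood above all the others. The log2 fold change was 0.041 (95% interval -0.097 to 0.18, adjusted p = 0.635), and both ends of the interval are under the fold limit in size. The exons of Irf9 share 123 bases with Rnf31 on the same strand, and those of Irf3 and Irf7 share 88 and 45 bases with Bcl2l12 and Phrf1 on the opposite strand, at most 2.56% of each.

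**Figure D2:**
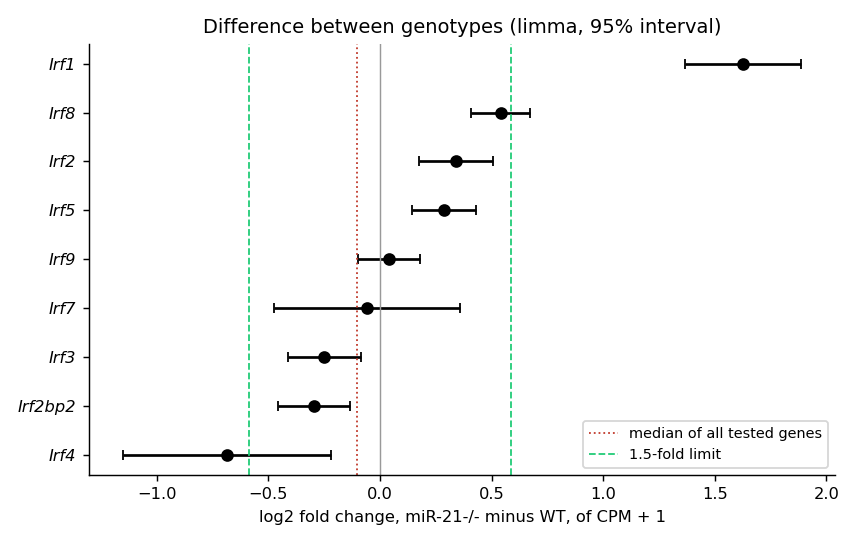
Points give the log2 fold change (miR-21-/- minus WT, of CPM + 1) of each of the 9 genes from limma and bars its 95% interval. Dashed lines mark the 1.5-fold limit and the dotted line the median of all tested genes at -0.10. The interval of Irf1 (1.37 to 1.89) lies wholly above the limit, those of Irf8 and Irf4 span it, and those of Irf9 and Irf7 include 0.

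The genes also differed in how much they varied within a genotype. The coefficient of variation in WT TAMs was 33.9% for Irf4 and 29.5% for Irf7, and between 4.59% (Irf3) and 14.8% (Irf1) for the other 7. In miR-21-/- TAMs it was 28.7% for Irf4, 14.1% for Irf7 and 13.8% for Irf1, and from 2.59% (Irf8) to 9.70% (Irf3) for the others. Irf4 had the fewest reads of the 9 genes, whereas Irf7 was measured with at least 2626 reads per sample, so counting error is small against its spread.

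Levels can be set against each other only per length, and CPM was divided by the joined exon length of each gene. In WT TAMs the most abundant transcript per kb was Irf5, at 63.5 ± 3.89 CPM per kb, followed by Irf7 at 50.4 ± 14.9, Irf1 at 30.5 ± 4.50, Irf2bp2 at 30.1 ± 2.90, Irf8 at 25.3 ± 1.75, Irf2 at 14.5 ± 1.56, Irf9 at 13.3 ± 0.627, Irf3 at 11.4 ± 0.524 and Irf4 at 0.798 ± 0.270. Neighbors whose sample ranges overlapped were Irf5 and Irf7, Irf7 and Irf1, Irf1 and Irf2bp2, and Irf2 and Irf9. In miR-21-/- TAMs Irf1 came first at 94.6 ± 13.0 CPM per kb, overlapping only Irf5 at 77.5 ± 4.99. Below them stood Irf7 at 47.1 ± 6.64, Irf8 at 36.8 ± 0.953, Irf2bp2 at 24.4 ± 1.28, Irf2 at 18.3 ± 0.651, Irf9 at 13.7 ± 1.01, Irf3 at 9.59 ± 0.930 and Irf4 at 0.408 ± 0.117, with no overlap between neighbors. Irf1 also went from rank 3 to rank 1 when the longest transcript was taken as the length, while some neighbors lower in the order changed places, such as Irf8 and Irf2bp2 in WT TAMs.

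As a share of the summed level per kb of the 8 IRF genes, Irf1 made up 14.5 ± 1.31% in WT and 31.6 ± 1.99% in miR-21-/- TAMs. Irf7 made up 23.8 ± 5.16% and 15.8 ± 0.916%, and Irf5 30.4 ± 2.80% and 26.1 ± 0.995%. Irf8 held 12.1 ± 1.46% and 12.4 ± 0.854%, a share that was alike in both genotypes although its own level was higher in miR-21-/- TAMs. These shares add up to 100% in each sample, so a larger share of Irf1 lowers those of the others.

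**Figure D3:**
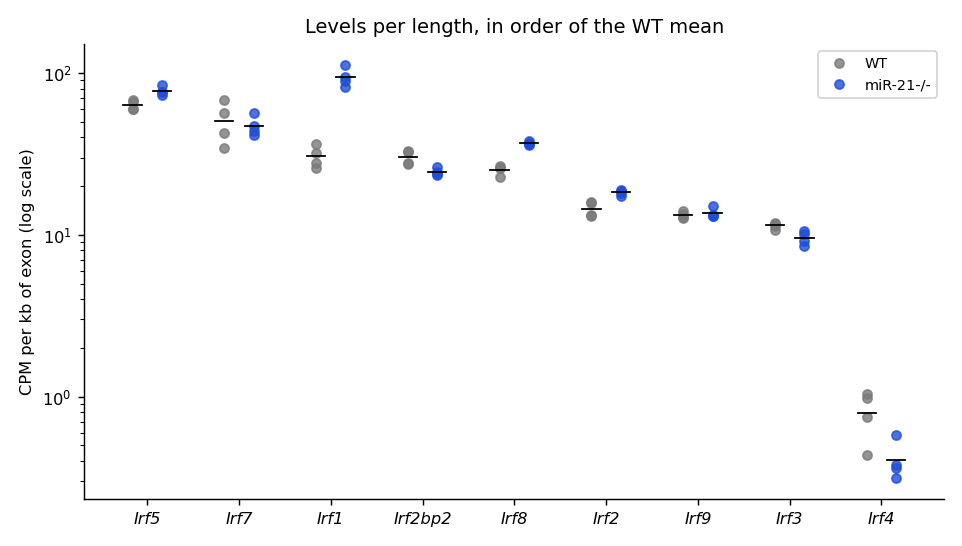
The level per kb of exon is plotted on a log scale for each of the 9 genes and every sample, WT in gray and miR-21-/- in blue, with black lines at the means (n = 4 each). Irf1 moves from the third place (30.5 CPM per kb) to the first (94.6), and Irf4 stays at the bottom, under 1.04 CPM per kb in every sample.

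Pairs of genes that oppose or accompany each other were compared as log2 ratios within each sample, by exact permutation tests (two-sided, n = 4 each, adjusted over the 5 ratios), for which 0.0286 is the smallest unadjusted p. The ratio of the activator Irf1 to its antagonist Irf2 was -0.077, 0.074, 0.39 and 0.29 in the WT samples and 1.74, 1.53, 1.22 and 1.35 in the miR-21-/- samples. It was 1.29 higher in miR-21-/- TAMs (exact permutation test, adjusted p = 0.0357), with no overlap. The ratio of Irf1 to Irf8, both IFN-γ responsive, was -0.56 ± 0.20 in WT and 0.52 ± 0.18 in miR-21-/- TAMs, a difference of 1.09 (exact permutation test, adjusted p = 0.0357). The increase of Irf1 was thus larger than that of the other genes it was paired with, beyond the spread of the samples.

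IRF4 competes with IRF5 for MyD88, and shares PU.1 as a partner with IRF8. The ratio of Irf5 to Irf4 went from 5.28 ± 0.46 to 6.25 ± 0.19, 0.97 higher in miR-21-/- TAMs, and that of Irf8 to Irf4 from 5.23 ± 0.43 to 6.46 ± 0.24, 1.23 higher (exact permutation tests, adjusted p = 0.0357 each). WT sample 4 came nearest to the miR-21-/- samples in both, with 5.93 against a lowest miR-21-/- value of 6.01 for Irf5 to Irf4. With a pseudocount of 0.1 the ratio of Irf5 to Irf4 no longer passed (difference 1.19, exact permutation test, adjusted p = 0.0714). With a pseudocount of 10 both ratios to Irf4 still passed but were smaller, at 0.48 for Irf5 and 0.73 for Irf8 (exact permutation test, adjusted p = 0.0357 for each). The ratio of Irf3 to Irf7, the pair activated by viral sensors, was -2.20 ± 0.44 in WT and -2.39 ± 0.26 in miR-21-/- TAMs (difference -0.19, exact permutation test, adjusted p = 0.429). Its samples overlapped. With any 1 miR-21-/- sample left out, the adjusted p of the 4 other ratios was 0.0714 in the exact permutation test, with any 1 WT sample left out it was 0.0357, and their differences kept their sign. Before adjustment, the ratios of Irf1 kept a p of 0.0286 without a miR-21-/- sample, and those to Irf4 had 0.0571.

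**Figure D4:**
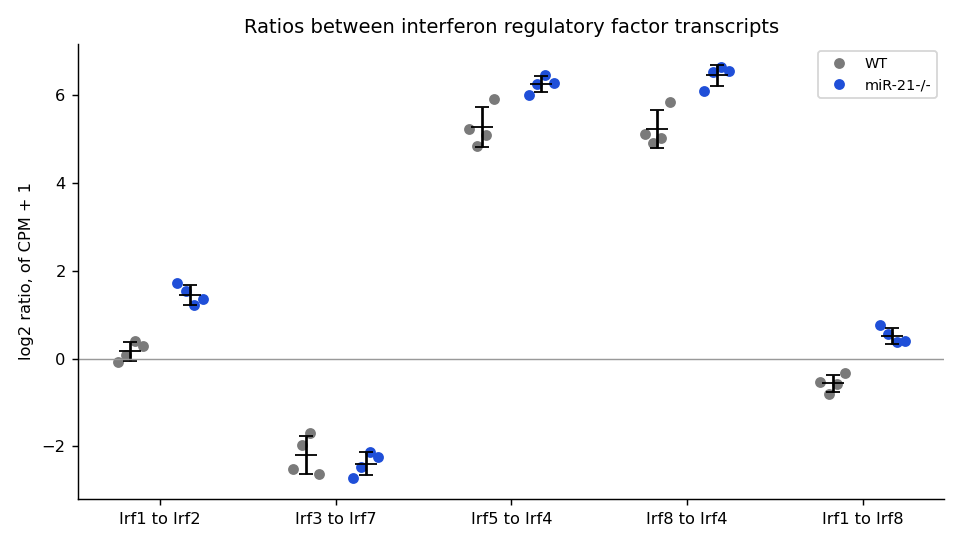
The log2 ratio of CPM + 1 between paired genes is plotted for each sample, WT in gray and miR-21-/- in blue, with mean ± SD (n = 4 each). The genotypes are apart for 4 of the 5 ratios, by 0.97 to 1.29 in the mean, and overlap for Irf3 to Irf7.

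The promoters of the 9 genes were searched on both strands for TTCNNNGAA, the GAS element of IFN-γ responsive promoters, and for a core of the ISRE that ISGF3 and IRFs bind (GAAA, NN, GAAA), in the 300 bases around the start given by RefSeq (GRCm38.p6; 12 promoters for the 9 genes). GAS letters were found for Irf1, Irf8 and Irf2, and ISRE letters for Irf2. The 250 bases before the start are shown for these 3 genes, with the motifs in capitals, because they are the members with such letters and all 3 had higher levels, without overlap, in miR-21-/- TAMs. Irf5, the fourth such gene, held neither motif.
Irf1: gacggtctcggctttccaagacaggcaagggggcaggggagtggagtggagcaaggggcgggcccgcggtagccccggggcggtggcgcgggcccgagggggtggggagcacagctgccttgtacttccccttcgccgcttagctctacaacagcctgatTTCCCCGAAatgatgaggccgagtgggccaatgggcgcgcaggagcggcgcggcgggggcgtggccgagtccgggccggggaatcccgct
Irf8: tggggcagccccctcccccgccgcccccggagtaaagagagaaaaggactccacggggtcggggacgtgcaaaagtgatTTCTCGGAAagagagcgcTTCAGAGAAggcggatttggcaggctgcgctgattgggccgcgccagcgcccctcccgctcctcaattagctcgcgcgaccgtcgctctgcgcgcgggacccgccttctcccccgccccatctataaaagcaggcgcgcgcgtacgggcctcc
Irf2: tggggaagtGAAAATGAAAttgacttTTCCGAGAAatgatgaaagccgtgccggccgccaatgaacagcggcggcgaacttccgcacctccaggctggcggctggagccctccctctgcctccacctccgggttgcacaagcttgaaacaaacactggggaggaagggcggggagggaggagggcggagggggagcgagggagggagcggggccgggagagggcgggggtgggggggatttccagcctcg
They lie on the plus strand at chr11:53769764-53770013 (Irf1), chr8:120736108-120736357 (Irf8) and chr8:46739495-46739744 (Irf2). In Irf1 the GAS letters are TTCCCCGAA, beginning 90 bases before the start. Irf8 has both TTCTCGGAA and TTCAGAGAA, at 171 and 153 bases, and Irf2 has TTCCGAGAA at 224 bases with GAAAATGAAA at 241 bases. Of all 32851 promoters of this length, 8.30% held GAS letters and 3.44% ISRE letters. Counted by gene, GAS letters were held by 9.55% of all genes with a promoter and 8.43% of the tested ones. They were held by 14.1% of the genes called higher and 9.63% of those called lower. For ISRE letters these shares were 3.99%, 4.12%, 13.0% and 3.67%. A match of letters is a description and not a site.

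Genes around the IRFs in their pathways were taken in 8 lists, and are given by how many passed the threshold, beside 2.89% higher and 4.23% lower over all tested genes. Of 14 interferon receptors, JAKs and STATs, 1 rose and 1 fell, with a median log2 fold change of -0.048. Ifngr1, the ligand-binding chain of the IFN-γ receptor, fell from 256 ± 26.6 to 154 ± 11.3 CPM (-0.72, adjusted p = 0.000195). Stat2, which joins IRF9 in ISGF3, did not pass, with a log2 fold change of 0.32.

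Of 19 sensors, adaptors and kinases that act above IRF3, IRF5 and IRF7, 1 rose and 1 fell (median -0.062). Tlr4, the receptor for lipopolysaccharide, rose from 94.4 ± 6.85 to 150 ± 9.87 CPM (0.66, adjusted p = 0.000114). Slc15a4, a lysosomal transporter needed for IRF5 activation from endosomal receptors, fell from 52.1 ± 6.02 to 31.2 ± 2.69 CPM (-0.72, adjusted p = 0.000359). The kinases that phosphorylate IRF3 and IRF7 did not pass, Tbk1 having a log2 fold change of 0.072 and Ikbke one of 0.35.

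Of 12 factors that bind DNA with IRFs or work with IRF2BP2, 11 were tested, and 1 rose and 2 fell (median -0.19). Batf2, a basic leucine zipper factor that pairs with IRF1 in macrophages, rose from 11.02 ± 2.06 to 42.7 ± 5.55 CPM (1.87, adjusted p = 1.39e-05). Vgll4, a partner of IRF2BP2, fell from 20.8 ± 1.35 to 12.2 ± 1.37 CPM (-0.73, adjusted p = 0.000296). Cebpa, a myeloid factor, fell as well (-0.62, adjusted p = 0.00195), but missed a limit when any of 4 samples was left out, with -0.59 to -0.55. Spi1, which encodes PU.1, had 252 ± 8.13 CPM in WT TAMs against 246 ± 8.87 CPM in miR-21-/- TAMs.

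More genes passed in the list of those known to be induced through IRF1 than in the other lists. Of 22, 21 were tested, and 18 rose and none fell, with a median log2 fold change of 1.00. They comprised genes of antigen processing (Tap1, Tap2, Tapbp, Psmb8, Psmb9, Psmb10 and Nlrc5), guanylate-binding proteins (Gbp2, Gbp3 and Gbp5), the chemokines Cxcl9 and Cxcl10, and Nos2, Casp1, Socs1, Cd274, Ido1 and Il27. Gbp2 rose most, from 150 ± 34.3 to 913 ± 104 CPM (2.62, adjusted p = 4.01e-06). The lowest was Ciita, the class II transactivator, with a log2 fold change of -0.14 (adjusted p = 0.659). Some, such as Cxcl9 and Cxcl10, are genes the study itself names for these samples, so that the list is no independent evidence of its direction. The calls of Psmb10, Ido1 and Il27 were each lost when 1 of certain samples was left out, Psmb10 by falling to 0.56 to 0.58, under the fold limit, and the others by an adjusted p of 0.00521 to 0.00547.

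Targets of ISGF3, IRF3 and IRF7, the genes of the type I interferon response, had a median log2 fold change of 0.14, and 1 of 19 tested rose and none fell. The gene that rose was Ccl5, from 3.52 ± 0.478 to 12.9 ± 6.90 CPM (1.51, adjusted p = 0.00207), and it missed the limit on p when any of 5 samples was left out, with an adjusted p of 0.00502 to 0.00737. Rsad2 (0.75, limma adjusted p = 0.00835) and Oasl2 (0.59, limma adjusted p = 0.00637) were past the fold limit without overlap, but missed the limit on p. The count of 1 became 3 under alternatives such as the replicate block and an adjusted p of 0.05, and 0 under others. The lowest was Oas2, at -0.47 (adjusted p = 0.00975). Ifnb1 was at 0.150 CPM or less in every sample, where 3 reads were worth 0.0899 to 0.148 CPM, and was not tested. The sum of the 19 genes was 1234, 928, 843 and 1185 CPM in the WT samples and 1431, 1099, 1074 and 1083 CPM in the miR-21-/- samples. WT samples 1 and 4 were the highest of their group in this sum and in Irf7, WT sample 3 the lowest in both, and miR-21-/- sample 1 was the highest of its group in both.

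Targets of IRF5, IRF8 and IRF4 were counted in the same way. Of 5 tested targets of IRF5, 3 rose: Tnf, from 31.3 ± 6.67 to 61.5 ± 9.29 CPM (0.97, adjusted p = 0.00115), and Ccl5 and Cxcl10, which stand in the lists above as well. The lowest was Il23a at 0.19, and Il12a, Il12b and Il6 were below the filter. Of 12 tested targets of IRF8, 2 rose (median 0.095), Ctss, which encodes cathepsin S, at 0.65 and Nlrc5 at 0.96, and the lowest was Klf4 at -1.13 (adjusted p = 0.00535). Of 8 tested targets of IRF4 in alternative activation, 2 rose (median 0.11). Pdcd1lg2, which encodes PD-L2, rose from 6.85 ± 1.06 to 55.7 ± 6.12 CPM (2.86, adjusted p = 7.10e-07). The lowest was Cd209a, a dendritic cell lectin, at -1.28 (adjusted p = 0.0187).

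**Figure D5:**
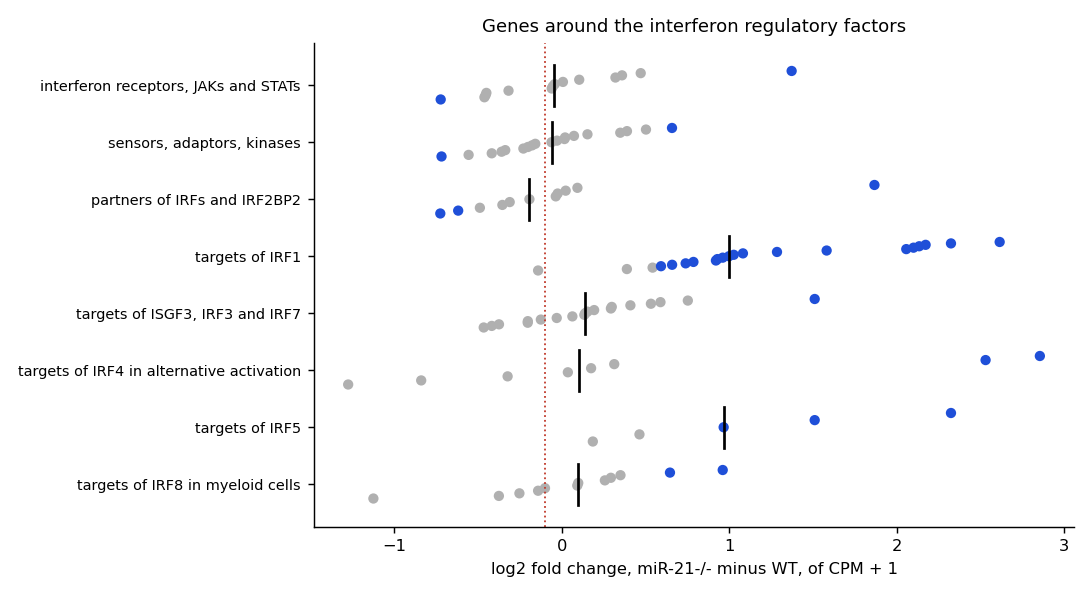
Each point is the log2 fold change (miR-21-/- minus WT, of CPM + 1) of 1 tested gene, blue where it passed the threshold and gray where it did not, with a black line at the median of each list and a dotted line at the median of all tested genes (-0.10). The targets of IRF1 lie mostly to the right, with a median of 1.00, against 0.14 for the targets of ISGF3, IRF3 and IRF7. Some genes stand in more than 1 list.

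For the 3 genes with the largest fitted change in size, Irf1, Irf4 and Irf8, the tested genes with the most similar profile over the 8 samples were taken by the smallest root mean square difference of centered log2 values. For Irf1 they were Irgm1 (0.094), Igtp (0.11) and Ifi47 (0.12), all of which encode interferon-inducible GTPases, against a median of 0.89 over all tested genes. Irgm1 went from 86.6 ± 15.6 to 243 ± 25.5 CPM. For Irf8 they were Tmem173 (0.054), which encodes the adaptor STING, Zc2hc1a (0.063) and Pfkp (0.067), a phosphofructokinase, against a median of 0.36. For Irf4 they included Ptgfrn (0.14) and Epas1 (0.14), against a median of 0.44, with WT means of 4.78 and 3.55 CPM.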

How the data were processed

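RNA-Seq libraries of sorted TAMs (4 WT and 4 miR-21-/- samples) were analysed from 1 table of CPM values, which the authors made with STAR and Partek 7.0 on mm10, per the submitters' processing notes, and deposited with 0.0001 added to each value. The counting rule is not given in the sources used here. Between 73.7% and 74.6% of the low values (up to 20 reads, within 0.02 reads) were whole reads, so no count test was run. After removal of the 0.0001, log2(CPM + 1) was fitted with limma 3.58.1 in R 4.3.3 (eBayes, trend in intensity). Genes entered the fit, 13850 in all, where their mean reached 1 per 1e+06 of the column totals. Adjusted p-values cover all tested genes. The model was tested on simulated data. Ratios were tested with scipy 1.17.1, and figures drawn with matplotlib 3.10.9. Exon lengths and 3′ UTRs came from GENCODE vM21, in which 93.3% of the gene symbols were found, 97.1% of these with the same start. Promoters and miR-21a-5p came from RefSeq.

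The genes named were all 9 members, the genes past the threshold and the extremes of each list, and the 3 genes most similar to each of the 3 members with the largest change. Clec9a, Tnpo3, Stat2, Tbk1, Ikbke, Spi1 and the marker and overlapping genes were added for context. Some genes that this rule selects are not reported here. Members and lists were chosen with earlier results of these data known. Alternatives were other pseudocounts, filters, scalings, variance models and thresholds, a replicate block, leaving out each sample, and the longest transcript as length. Precision is limited by 4 samples per genotype and, for Irf4, by its reads.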

Additional observations from a re-analysis of the deposited data

Results flagged for a closer look

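The level of Irf9 in miR-21-/- sample 1, 81.7 CPM, was far from the other 3 miR-21-/- samples, which lay between 70.4 and 71.4 CPM. Its gap to the nearest of them was 0.909 of the whole range of the group, above the 95% critical value of Dixon's test for 4 samples. Among 28 groups examined this was the only such value, and chance alone marks about 1 in 20 groups. This is the sample whose title joins a pair of sample numbers, and it was also the highest miR-21-/- sample for Irf1, Irf4, Irf5, Irf7 and Irf2bp2. Without it the log2 fold change of Irf9 was -0.0091 and that of Irf1 1.54.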

How the results depend on the processing

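Irf1 was past the threshold under every alternative, with log2 fold changes of 1.54 to 1.74. The count of 1 gene among the 9 became 2 after rescaling by the median of ratios and without the fold change limit (Irf1 and Irf8), and without WT sample 4 and with an adjusted p of 0.05 (Irf1 and Irf4). Leaving out each sample in turn gave 1 to 2 genes, and 6 to 7 genes whose groups did not overlap. The non-overlapping genes, an alternative added after seeing the data, numbered 4 after rescaling and 5 after quantile normalization. Irf7 changed sign after rescaling (0.055), without WT sample 1 (0.015) or 4 (0.10) and without miR-21-/- sample 3 (0.0043), with a range of -0.22 to 0.10 over the samples left out, and Irf9 without miR-21-/- sample 1 (-0.0091, range to 0.070). The other 7 genes kept their sign. Irf4 was not tested with the stricter filter on low values. The ratio of Irf5 to Irf4 missed the threshold with a pseudocount of 0.1 (1.19) and after quantile normalization (0.78). With a pseudocount of 10 it was 0.48, and the ratio of Irf8 to Irf4 was 0.73. Leaving out any 1 miR-21-/- sample gave adjusted p-values of 0.0714 for 4 ratios, whereas leaving out any 1 WT sample left them at 0.0357. Without a miR-21-/- sample, the unadjusted p of the exact permutation test stayed at 0.0286 for the ratios of Irf1. It was 0.0571 for the ratios to Irf4, and the adjustment over the 5 ratios brought all 4 to 0.0714. Over all samples left out, the differences were 1.20 to 1.37 (Irf1 to Irf2), 1.00 to 1.16 (Irf1 to Irf8), 0.83 to 1.19 (Irf5 to Irf4) and 1.12 to 1.44 (Irf8 to Irf4). The cause of the other changes under the alternatives was not tested. Over the alternatives, 15 to 20 targets of IRF1 rose, 0 to 3 of ISGF3, IRF3 and IRF7, 1 to 3 of IRF5, and 1 to 2 each of IRF4 and IRF8. Among the partners 0 to 3 fell, and among receptors and sensors 1 to 3 rose and 1 to 3 fell in each list. Filters, variance models, threshold limits and the block do not apply to the ratios.

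The replicate numbers were not shown to pair samples: correlations of the deviations of samples with the same number were 0.083, -0.11, -0.14 and 0.22. With the replicate number as a block, the count stayed at 1 gene (Irf1). In the lists, the block moved the targets of ISGF3, IRF3 and IRF7 that rose from 1 to 3. It moved the partners that fell from 2 to 1. A comparison of the protein sequences, planned at the start, was not run. Lengths of the longest transcript moved 13 of the levels per kb by more than their SD. Depth limits Irf4, with 40.0 to 146 reads per sample.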
